A study of Rattus norvegicus with 42 samples.

Results

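Collagens are the proteins of the extracellular matrix whose chains wind around each other into a rope-like helix. Each type is built from chains with genes of their own, named Col followed by the type and the chain, so that Col4a3 encodes the alpha 3 chain of type IV collagen. In the lung, fibrillar collagens form the fibres that carry load in the interstitium, type IV collagen forms the network of the basement membrane on which alveolar epithelium and capillary endothelium rest, and the remaining classes link these structures to each other and to cells. Scarring after inhalation of crystalline silica, called silicosis, is a disease in which collagen accumulates around silica-laden macrophages.

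The collagen gene family was taken as all gene symbols made of Col, a number, the letter a and a number in the count tables, kept where at least 10 counts were present in at least 4 rats of a table. This gave 33 members out of 44 matching symbols, among 30045 symbols per table. By class, 8 members were fibrillar, 6 basement membrane (type IV), 6 beaded filament (type VI), 7 FACIT (fibril-associated collagens with interrupted helices) and 6 were of other kinds. All 33 members met the rule at 3 months and 31 at 9 months, where Col22a1 and Col24a1 fell below it.

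The study set a high-fat diet beside silica-induced lung toxicity, and sequenced stranded total RNA, depleted of ribosomal RNA, from a piece of lung of 42 male Fischer rats of the F344/DuCrl strain. Rats bought at 3 months of age received a regular diet (18% of energy from fat) or a high-fat diet (60%) for the 2 weeks before exposure and from then on. Their whole-body exposure was to air or to crystalline silica (15 mg/m3, 6 hours daily, 5 days), and lungs were taken 3 or 9 months after it. At 3 months the regular diet had 4 air and 5 silica rats and the high-fat diet 5 air and 5 silica rats, and at 9 months these groups held 6, 5, 6 and 6 rats. No rat was sampled at both times.

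Total counts per rat lay between 5142514 and 8258098 at 3 months and between 3077792 and 8318322 at 9 months. Levels are given as CPM, counts scaled to a common library size, which can be compared between rats for a given gene but not between genes, since gene length was not taken into account. The share of counts on the ribosomal RNA genes Rnr1 and Rnr2 was 0.957% to 1.26% in the group means at 3 months. At 9 months it averaged 1.22% and 3.67% on the regular diet in air and with silica, and 6.22% and 7.66% on the high-fat diet. The median coefficient of variation of a member within a group was 10.5%.

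The collagen symbols together took a smaller mean share of the counts in silica-exposed than in air-exposed rats of each diet and time. Col1a2 and Col15a1 hardly enter this share, with 9 and 16 counts in all at 3 months and 0 at 9 months. The mean share of each group was smaller at 9 months than at 3 months, and these shares are given as a description with no test. At 3 months all 44 collagen symbols together held 0.816% ± 0.0316 (SD, n = 4) of the counts on the regular diet in air and 0.707% ± 0.0352 (n = 5) with silica. In high-fat rats the share was 0.798% ± 0.0247 (n = 5) in air and 0.739% ± 0.0396 (n = 5) with silica. The ranges of air and silica did not overlap on the regular diet (0.775% to 0.851% against 0.679% to 0.760%) but did on the high-fat diet. At 9 months the regular-diet share was 0.533% ± 0.0256 (n = 6) in air and 0.386% ± 0.0303 (n = 5) with silica. For the high-fat diet at that time it was 0.525% ± 0.0194 (n = 6) in air and 0.357% ± 0.00863 (n = 6) with silica. Every silica-exposed rat at 9 months was below every air rat. Col3a1, Col4a1, Col4a2 and Col6a3 together held 0.237% ± 0.0143 of the counts on the regular diet in air at 9 months and 0.160% ± 0.0144 with silica. In bulk lung, a share cannot tell apart fewer collagen-producing cells, less collagen RNA per cell and more RNA from other cells.

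**Figure D1:**
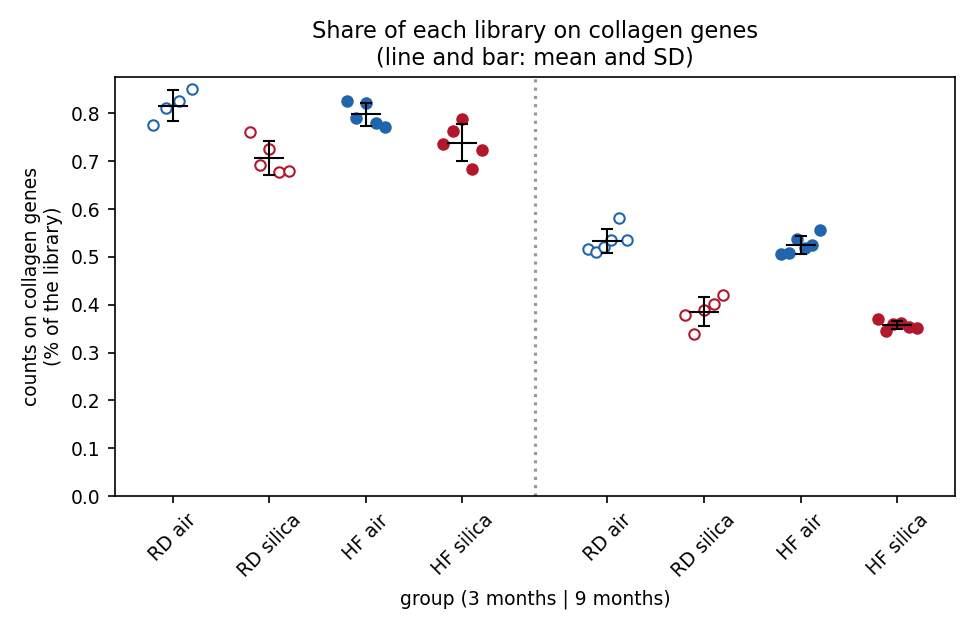
Percentage of each library's counts on the 44 collagen symbols, 1 point per rat, in the 8 groups (RD, regular diet; HF, high-fat diet; left of the dotted line 3 months, right of it 9 months); horizontal lines and bars are the mean and SD. At 9 months the silica-exposed rats lie at 0.339% to 0.420% on the regular diet and at 0.346% to 0.370% on the high-fat diet, below all air rats.

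Silica-exposed lungs had lower RNA of many collagen genes at 3 months and of most at 9 months. At 3 months on the regular diet 16 of 33 members fell and 1, Col17a1, rose, against 6.6% of all genes tested that fell and 10.2% that rose, 16.8% in all (edgeR quasi-likelihood test, Benjamini-Hochberg adjusted p below 0.05 over all genes). With the high-fat diet 10 of 33 members fell and 2, Col9a2 and Col17a1, rose at 3 months, against 8.19% and 9.23% of all genes (17.4% in all). Without high-fat air rat 4 that count of 12 members was 7. At 9 months on the regular diet 23 of 31 members fell and 3 rose, Col9a2, Col16a1 and Col17a1, against 20.6% and 24.5% of all genes (45.1% in all). The high-fat diet at 9 months had 26 of 31 members lower and the same 3 higher, against 24.9% and 26.7% (51.6% in all). The counts of each class below are also to be read against these shares of all genes. The median log2 change of the members was -0.23, -0.13, -0.45 and -0.57 in these 4 comparisons, and that of all genes was -0.01, -0.01, 0.00 and 0.00.

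At 9 months 23 members were lower on both diets, and 9 members were lower in all 4 silica comparisons: Col5a2, Col4a1, Col4a2, Col4a3, Col4a4, Col4a5, Col6a1, Col6a2 and Col13a1. Col17a1 alone was higher in all 4. Col8a1, Col20a1, Col22a1 and Col24a1 were called in none of them, although Col22a1 and Col24a1 were tested at 3 months only. Among the 9 members lower in all 4, some 3-month calls of Col4a2, Col4a4 and Col6a1 were lost without single rats, as given below. Col4a1 and Col4a5 were not examined in that way. The Rnr1 and Rnr2 share averaged higher with silica at 9 months, as given above. Adding the Rnr1 and Rnr2 share to the fit as a covariate left 20 of 31 members lower and 2 higher on the regular diet at 9 months, and 24 lower and 3 higher on the high-fat diet. On the regular diet at 9 months the share ran from 0.375% to 2.29% in air and 2.60% to 5.35% with silica. The high-fat ranges were 4.62% to 7.19% and 7.29% to 7.85%. Since air and silica did not overlap, that fit cannot separate the share from silica, here or for single members below.

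**Figure D2:**
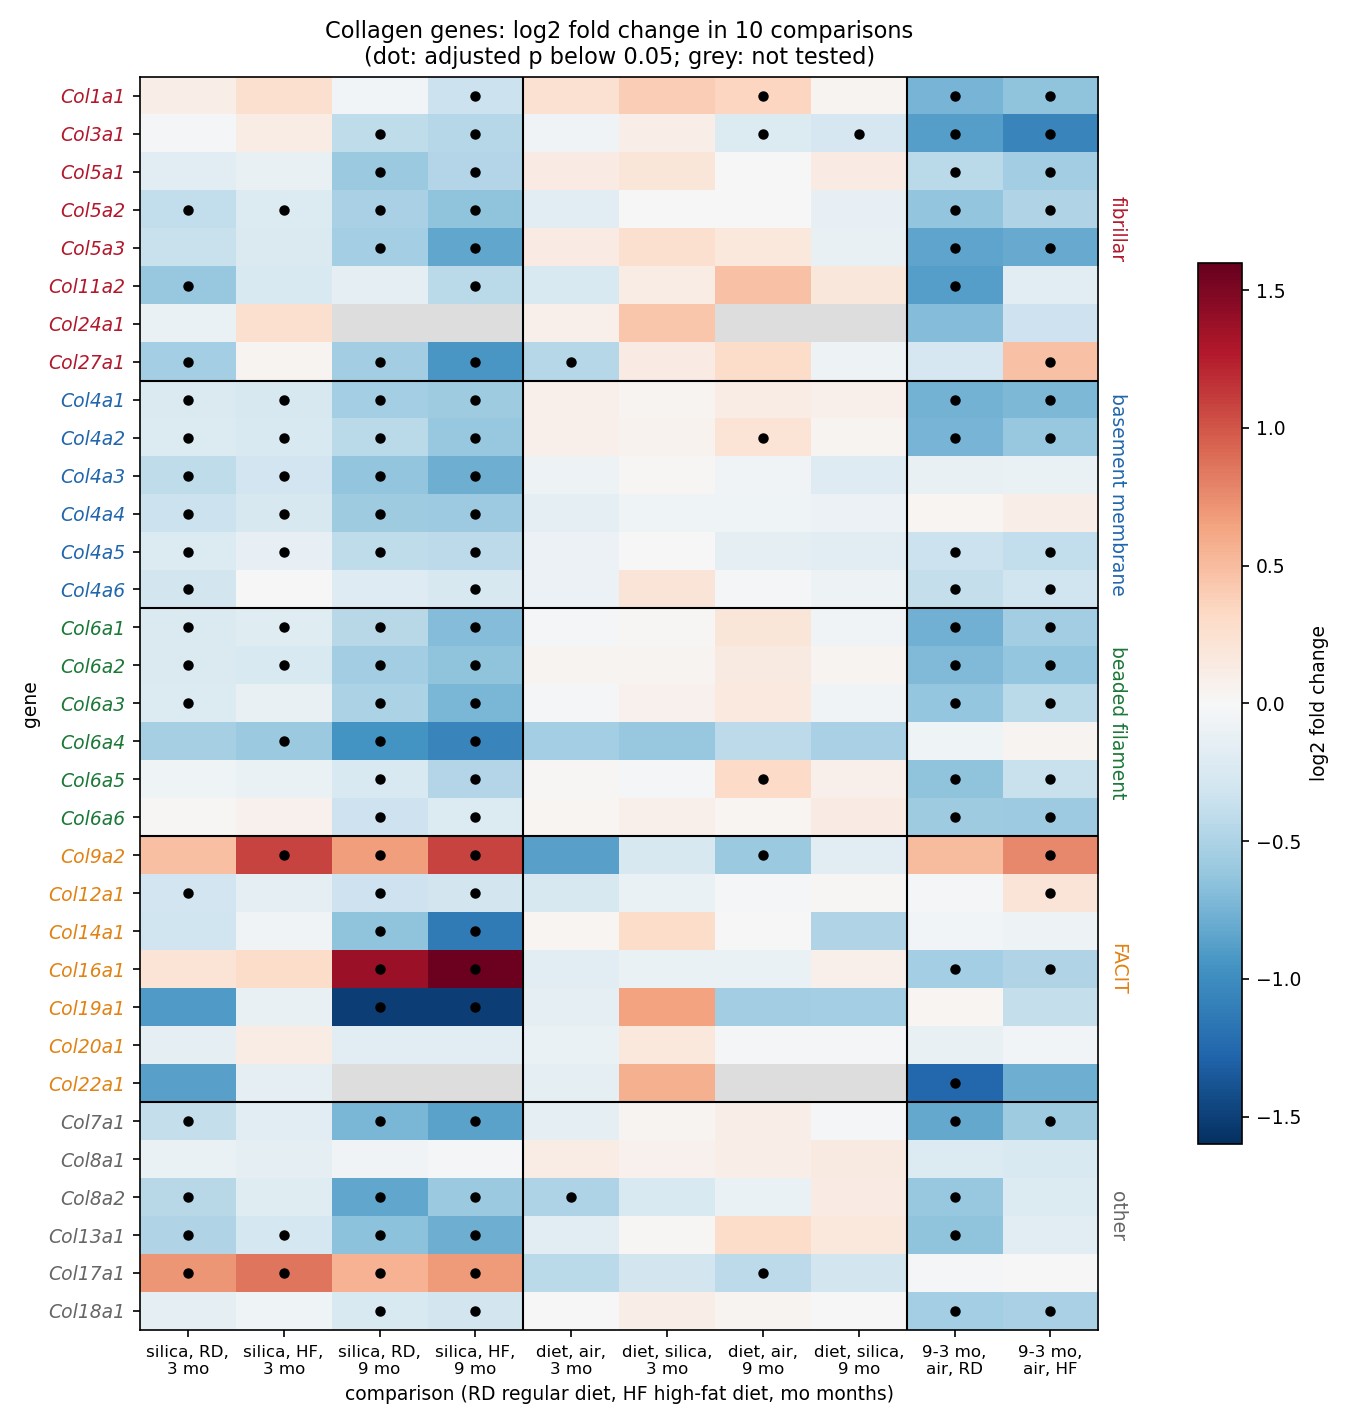
Log2 change (colour) of the 33 members (rows, ordered by class) in the comparisons of the study (columns), with a dot where the adjusted p was below 0.05 and grey where the gene was not tested. The silica columns at 9 months are mostly on the lower side, with Col16a1 at 1.38 and 1.57 as the largest positive values in them.

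Most listed markers of fibroblasts, pericytes, myofibroblasts and smooth muscle, mesothelium, endothelium and alveolar type 1 cells were lower with silica at 9 months. At 3 months called decreases were fewer in most lists, and the myofibroblast and mesothelial lists had none. The share of all genes that fell was 6.6% and 8.19% at 3 months and 20.6% and 24.9% at 9 months, regular diet before high-fat. Of 9 fibroblast markers tested (among them Pdgfra and Tcf21), 4 were lower and 0 higher at 3 months on each diet, and 7 were lower and 0 higher at 9 months on each diet, with medians of -0.53 and -0.53. Summed over the 9 markers present, the fibroblast level ran from 1689.6 to 2172 CPM in air and 1109 to 1565 CPM with silica in regular-diet rats at 9 months, and from 2003 to 2276 and 1245 to 1477 CPM on the high-fat diet. At 3 months those ranges were 2267 to 2362 and 1720.5 to 2079 CPM, and 2343 to 2421 and 1889 to 2098 CPM. Air and silica rats thus did not overlap in this summed level on either diet at either time. The sum is weighted to the markers with most counts, chiefly Limch1 (271605 counts over all rats), followed by Pdgfra (79940). It does not show that each of the 9 markers separated the rats, and only 4 were called lower at 3 months on each diet.

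Pericyte markers (6, summed) were at 291 to 402 CPM in air and 161 to 247 CPM with silica in regular-diet rats at 9 months, and at 326 to 373 and 203 to 243 CPM on the high-fat diet, with all 6 lower on both diets and 1 and 3 lower at 3 months. Endothelial markers (8) were lower for 5 on each diet at 3 months, and for 7 and 8 at 9 months. Alveolar type 1 markers (8) were lower for 7 and 6 at 3 months and for 7 and 8 at 9 months. Of all genes tested, 6.6% and 8.19% fell at 3 months and 20.6% and 24.9% at 9 months. Those that rose were 10.2% and 9.23% at 3 months and 24.5% and 26.7% at 9 months. Of 9 myofibroblast and smooth muscle markers, 0 and 0 were lower at 3 months and 6 and 8 at 9 months. Their higher members were 0 and 1 at 3 months and 1 and 1 at 9 months, in each case Cthrc1. The list, with Acta2, Tagln and Myh11 among its genes, does not separate myofibroblasts from smooth muscle. Its falls are therefore not read as a loss of collagen-producing myofibroblasts. Of 6 mesothelial markers, 0 and 0 were lower at 3 months and 4 and 5 at 9 months, with medians of -0.61 and -2.01 at 9 months. None of the mesothelial, pericyte, endothelial or alveolar type 1 markers was higher. Macrophage markers went the other way, with 4 of 5 and 3 of 5 higher at 3 months and 5 of 6 on each diet at 9 months, and summed levels of 429 to 570.1 CPM in air against 692 to 928 CPM with silica in regular-diet rats at 9 months, and 312 to 407 against 622 to 749.9 CPM on the high-fat diet. Among those macrophage genes 1 was lower in each silica comparison. The part of these cell markers in the collagen decreases was not tested.

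The fibrillar class holds the chains of the load-bearing fibres: Col1a1 for type I, Col3a1 for type III, Col5a1, Col5a2 and Col5a3 for type V, which nucleates thin fibrils, and Col11a2, Col24a1 and Col27a1 for minor types. Silica lowered 3 of 8 fibrillar members at 3 months on the regular diet (Col5a2, Col11a2, Col27a1) and 1 of 8 on the high-fat diet (Col5a2). At 9 months it lowered 5 of 7 on the regular diet (Col3a1, Col5a1, Col5a2, Col5a3, Col27a1) and 7 of 7 on the high-fat diet, where Col1a1 and Col11a2 joined them. No fibrillar member rose. The class median log2 change was -0.26 and -0.03 at 3 months and -0.52 and -0.47 at 9 months.

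Col1a1 encodes the more abundant chain of type I collagen, a usual readout of lung scarring, and was not called higher in any silica comparison. At 3 months Col1a1 stood at 88.6, 71.6, 80.6 and 83.5 CPM in the air rats and 75.6, 96.8, 103, 93.4 and 69.1 CPM in the silica rats on the regular diet. On the high-fat diet the Col1a1 values were 112.9, 94.9, 110.97, 86.9 and 75.0 CPM in air and 101, 126.8, 134.9, 86.3 and 124.3 CPM with silica. Groups overlapped on both diets, and the log2 changes were 0.11 ± 0.14 (adjusted p = 0.62) and 0.26 ± 0.13 (adjusted p = 0.17), each given with its standard error. At 9 months Col1a1 ran between 42.7 and 58.3 (median 47.2) CPM in air and 46.6, 49.2, 36.2, 48.6 and 54.4 CPM with silica on the regular diet. High-fat rats of that time ran between 50.4 and 69.3 (median 62.1) CPM in air and between 43.6 and 53.4 (median 47.3) CPM with silica. Only the high-fat change was called at 9 months, as a decrease (-0.35 ± 0.09, adjusted p = 0.0033), beside -0.05 ± 0.10 (adjusted p = 0.74) on the regular diet. The regular-diet value was slightly above 0 without air rat 4 (0.01) or without silica rat 3 (0.04), and was called in neither case. In RefSeq, Sgca overlaps Col1a1, and the strand setting of the counting was not given in the sources used here, so reads of the 2 genes may not be separated. Col1a2, the partner chain of Col1a1, had 9 counts in all at 3 months and 0 at 9 months, 8 of the 9 in a single rat, and a further symbol, Col1a2-2, had 0. A gene listed near 0 beside a clearly detected Col1a1 is not read here as absent from the lung.

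Col3a1 encodes type III collagen, the fine reticular fibre of distensible organs. At 3 months Col3a1 was at 1301, 1291, 1315 and 1397 CPM in air and 1378, 1288, 1399, 1279 and 1148 CPM with silica on the regular diet. The high-fat groups had 1289, 1351, 1251, 1234 and 1272 CPM of Col3a1 in air and 1459, 1472, 1433, 1256 and 1330.3 CPM with silica. These groups overlapped and neither change was called, at -0.03 ± 0.06 (adjusted p = 0.75) and 0.12 ± 0.06 (adjusted p = 0.14); the regular-diet value was 0.01 without silica rat 5. At 9 months Col3a1 lay between 662 and 790.5 (median 709.8) CPM in air and at 525, 502, 528, 569 and 576 CPM with silica on the regular diet. In the high-fat rats it lay between 579.8 and 672 (median 609.8) CPM in air and between 437 and 460.4 (median 449) CPM with silica. No silica rat reached the level of an air rat on its diet, and Col3a1 changed by -0.41 ± 0.05 (adjusted p = 2.9e-07) on the regular and -0.46 ± 0.05 (adjusted p = 1.3e-08) on the high-fat diet.

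Col5a2, a chain of type V collagen, was the fibrillar member that fell in all 4 silica comparisons. At 3 months on the regular diet Col5a2 was at 467, 507, 477 and 518 CPM in air and 417, 378, 379, 357 and 348 CPM with silica. Its values with the high-fat diet were 423, 439, 443, 453 and 444 CPM in air and 348, 360.1, 408, 373 and 395 CPM with silica. Air and silica rats did not overlap on either diet, with log2 changes of -0.39 ± 0.05 (adjusted p = 3.2e-05) and -0.22 ± 0.05 (adjusted p = 0.0047). At 9 months Col5a2 was between 302 and 351 (median 314) CPM in air and 197, 198, 233, 231 and 245 CPM with silica on the regular diet. With the high-fat diet it was between 297 and 326 (median 318) CPM in air and between 185 and 225 (median 201) CPM with silica. Again no rat overlapped, and the changes of -0.52 ± 0.06 (adjusted p = 5e-08) and -0.64 ± 0.05 (adjusted p = 3.5e-10) corresponded to levels 1.43-fold and 1.56-fold lower. Col5a2 lies in the genome next to Col3a1, which fell with silica at 9 months and was not called at 3 months.

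Col5a1, the major chain of type V collagen, had 169.8, 166, 163 and 170.2 CPM in air and 148.2, 137.03, 166, 152 and 137.3 CPM with silica in regular-diet rats at 3 months. High-fat rats had 196, 168, 206, 175 and 173 CPM of Col5a1 in air and 184, 173, 183, 146.5 and 159 CPM with silica. The groups overlapped and neither change was called (-0.18 ± 0.07, adjusted p = 0.11, and -0.11 ± 0.07, adjusted p = 0.3), although the regular-diet change was called without silica rat 3 (-0.23, adjusted p = 0.038) and with the Rnr1 and Rnr2 share as a covariate (-0.23, adjusted p = 0.049). At 9 months Col5a1 was between 109.9 and 142.3 (median 121.01) CPM in air and 81.9, 69.6, 74.4, 86.0 and 98.1 CPM with silica on the regular diet. It was between 119.3 and 136.3 (median 121.1) CPM and between 79.8 and 99.3 (median 88.8) CPM in the corresponding high-fat groups. The 9-month groups did not overlap, and Col5a1 changed by -0.59 ± 0.08 (adjusted p = 8e-07) and -0.47 ± 0.07 (adjusted p = 6.9e-06). Among the minor fibrillar genes, Col27a1 fell on the regular diet at 3 months (-0.54 ± 0.11, adjusted p = 0.0018) and on both diets at 9 months (-0.56 ± 0.17, adjusted p = 0.0081, and -0.93 ± 0.16, adjusted p = 2.5e-05), while its change on the high-fat diet at 3 months was 0.05 ± 0.11 (adjusted p = 0.82). Col5a3, the third type V chain, fell at 9 months (-0.55 and -0.83). At 3 months its values were -0.35 (adjusted p = 0.095) and -0.23 (adjusted p = 0.26), and the difference between the times was called on the high-fat diet and not on the regular diet. Col11a2 fell on the regular diet at 3 months (-0.61, adjusted p = 0.0097) and on the high-fat diet at 9 months (-0.43, adjusted p = 0.045). Col24a1, near 1 CPM in every group at 3 months, was not called.

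In the basement membrane class at least 5 of 6 members fell in each silica comparison. Its 6 genes lie head to head in pairs and build 3 networks: chains from Col4a1 and Col4a2 make the network found under nearly all cells, Col4a3, Col4a4 and Col4a5 make the network of the alveolar and glomerular barriers, and Col4a6 joins Col4a5 in a network of other sites. Silica lowered 6 of 6 at 3 months on the regular diet and 5 of 6 on the high-fat diet, Col4a6 being the exception (0.01, adjusted p = 0.97). At 9 months it lowered 5 of 6 on the regular diet, again without Col4a6 (-0.20, adjusted p = 0.13), and 6 of 6 on the high-fat diet. The class medians were -0.26, -0.25, -0.48 and -0.58.

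Both genes of the pairs Col4a1 with Col4a2 and Col4a3 with Col4a4 fell in all 4 silica comparisons, and the sequences by their shared start regions are shown, as RefSeq gives them on the rat assembly GRCr8. The start sites of Col4a1 and Col4a2 lie 77 bases apart on opposite strands, those of Col4a3 and Col4a4 413 bases and those of Col4a5 and Col4a6 1415 bases. Each line gives the 250 bases before the start site, 5′ to 3′ on the strand of the gene named. Capitals mark the bases between both start sites for Col4a1 (chr16:84885347-84885596, plus strand), and the bases that the RefSeq promoter window of the partner Col4a4 also covers for Col4a3 (chr9:91323740-91323989, plus strand).
Col4a1: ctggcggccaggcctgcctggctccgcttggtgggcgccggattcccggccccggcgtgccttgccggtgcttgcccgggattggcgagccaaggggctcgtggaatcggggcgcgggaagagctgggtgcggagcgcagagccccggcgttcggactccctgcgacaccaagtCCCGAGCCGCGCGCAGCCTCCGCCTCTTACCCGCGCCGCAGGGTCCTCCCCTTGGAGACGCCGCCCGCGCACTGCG
Col4a3: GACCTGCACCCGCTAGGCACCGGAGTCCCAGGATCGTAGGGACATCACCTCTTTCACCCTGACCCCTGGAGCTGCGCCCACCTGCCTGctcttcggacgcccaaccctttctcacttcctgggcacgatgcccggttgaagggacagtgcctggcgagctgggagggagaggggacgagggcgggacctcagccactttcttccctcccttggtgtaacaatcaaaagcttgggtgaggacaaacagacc

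Col4a1 was at 919.7, 1051, 1153 and 1089 CPM in air and 951, 829.8, 1003, 884 and 841 CPM with silica at 3 months on the regular diet. In high-fat rats Col4a1 was at 1141, 1079.5, 1191, 1108 and 1056 CPM in air and 943, 912, 1009, 848 and 933 CPM with silica. The changes were -0.23 ± 0.07 (adjusted p = 0.026), with overlapping groups, and -0.26 ± 0.06 (adjusted p = 0.0068), without overlap. At 9 months Col4a1 was between 571 and 765 (median 599) CPM in air and 389.8, 355, 449, 474 and 476 CPM with silica on the regular diet. The high-fat values were between 631 and 728 (median 675) CPM in air and between 419.5 and 480.4 (median 462) CPM with silica. All silica rats were below all air rats of their diet at 9 months, with changes of -0.54 ± 0.08 (adjusted p = 2.3e-06) and -0.57 ± 0.07 (adjusted p = 2.9e-07).

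Its partner Col4a2 followed the same order. Col4a2 was at 629, 738, 739 and 711 CPM in air and 662, 545, 661, 588 and 576 CPM with silica in regular-diet rats at 3 months. It was at 769, 714, 802, 721 and 716 CPM in air and 631, 630.3, 677, 589 and 619 CPM with silica in high-fat rats. The regular-diet groups overlapped and the high-fat groups did not, with changes of -0.22 ± 0.06 (adjusted p = 0.023) and -0.24 ± 0.06 (adjusted p = 0.0082). The regular-diet call at 3 months was lost without air rat 2, 3 or 4 or silica rat 4 or 5 (adjusted p between 0.054 and 0.083, changes between -0.21 and -0.19), and in a fit of those 2 groups alone (adjusted p = 0.054). At 9 months Col4a2 was between 366 and 532 (median 411) CPM in air and 307, 253, 329, 337 and 335 CPM with silica on the regular diet. In the high-fat groups it was between 456 and 529.7 (median 492) CPM and between 306 and 338 (median 325) CPM. No overlap remained at 9 months, and Col4a2 changed by -0.43 ± 0.08 (adjusted p = 7.3e-05) and -0.61 ± 0.07 (adjusted p = 2e-07).

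Col4a3, a chain of the alveolar barrier network and the antigen attacked in Goodpasture disease, had the largest decreases of the type IV genes. Col4a3 was at 285, 332, 369.7 and 325 CPM in air and 289, 254, 250.01, 230.3 and 218 CPM with silica in regular-diet rats at 3 months. Its high-fat values were 328, 297, 349, 303 and 275 CPM in air and 233, 245, 286, 244 and 242 CPM with silica. A slight overlap of the groups remained on each diet, with changes of -0.41 ± 0.08 (adjusted p = 0.0019) and -0.31 ± 0.08 (adjusted p = 0.0086). At 9 months Col4a3 was between 269 and 324 (median 304) CPM in air and 181, 166, 188, 223 and 208 CPM with silica on the regular diet. The high-fat rats had between 266 and 306 (median 292) CPM in air and between 142.4 and 190.0 (median 169.6) CPM with silica. The 9-month groups were fully apart, and Col4a3 was 1.55-fold lower on the regular diet (-0.64 ± 0.07, adjusted p = 1.4e-07) and 1.71-fold lower on the high-fat diet (-0.78 ± 0.07, adjusted p = 1.2e-09).

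Col4a4, which shares the gap with Col4a3, was at 78.9, 87.8, 95.3 and 91.5 CPM in air and 82.4, 68.8, 72.3, 63.3 and 63.3 CPM with silica at 3 months on the regular diet. High-fat rats had 81.0, 80.5, 89.1, 79.6 and 68.5 CPM of Col4a4 in air and 67.1, 57.8, 77.6, 63.5 and 65.1 CPM with silica. Groups overlapped on both diets, with changes of -0.34 ± 0.09 (adjusted p = 0.011) and -0.26 ± 0.08 (adjusted p = 0.036). The high-fat call was lost on leaving out any of air rats 1 to 4 or silica rats 1, 2, 4 or 5 (adjusted p between 0.057 and 0.13), and with the Rnr1 and Rnr2 share as a covariate (-0.23, adjusted p = 0.077). At 9 months Col4a4 was between 83.6 and 97.8 (median 88.8) CPM in air and 56.4, 52.6, 63.2, 69.4 and 62.0 CPM with silica on the regular diet. It was between 81.7 and 91.1 (median 84.2) CPM in air and between 51.7 and 62.2 (median 57.3) CPM with silica on the high-fat diet. Silica and air rats were apart on both diets, with changes of -0.56 ± 0.06 (adjusted p = 8.7e-08) and -0.58 ± 0.06 (adjusted p = 1.6e-08). Col4a5, which completes that network, changed by -0.22 and -0.13 at 3 months and by -0.40 and -0.42 at 9 months on the regular and high-fat diets, all 4 called.

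Beaded filaments of type VI collagen are built from the chains of Col6a1, Col6a2 and a long chain, usually that of Col6a3, and tie fibres and basement membranes to cells. Col6a4, Col6a5 and Col6a6 encode alternatives to the Col6a3 chain. Silica lowered 3 of 6 on the regular diet at 3 months (Col6a1, Col6a2, Col6a3) and 3 of 6 on the high-fat diet (Col6a1, Col6a2, Col6a4). At 9 months 6 of 6 fell on each diet. The class medians were -0.23 and -0.15 at 3 months and -0.48 and -0.67 at 9 months. Col6a4 had the largest decreases of the class at 9 months (-0.96 ± 0.18, adjusted p = 1e-04, and -1.05 ± 0.18, adjusted p = 2.9e-05). Col6a4, Col6a5 and Col6a6 are similar neighbours, and how the counting treated reads that fit more than 1 of them was not given in the sources used here.

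Col6a1 was at 352, 395, 366 and 365 CPM in air and 359, 323, 316, 283 and 291 CPM with silica in regular-diet rats at 3 months. The high-fat rats stood at 398, 337, 377, 359.7 and 347 CPM of Col6a1 in air and 309.8, 338, 339, 297 and 305 CPM with silica. Groups overlapped on each diet, with changes of -0.23 ± 0.07 (adjusted p = 0.017) and -0.19 ± 0.06 (adjusted p = 0.037). The regular-diet call was lost without air rat 2 (adjusted p = 0.062) or silica rat 4 (adjusted p = 0.054), and the high-fat call without air rat 1, 3 or 4 or silica rat 1, 4 or 5 (adjusted p between 0.075 and 0.12) and with the Rnr1 and Rnr2 covariate (-0.17, adjusted p = 0.073). At 9 months Col6a1 was between 186 and 254 (median 217) CPM in air and 159, 129.8, 157, 163 and 186 CPM with silica on the regular diet. In high-fat rats it was between 235 and 276 (median 245) CPM in air and between 144.8 and 161 (median 154) CPM with silica. The regular-diet groups touched at silica rat 5, the high-fat groups were apart, and the changes were -0.45 ± 0.08 (adjusted p = 2.6e-05) and -0.69 ± 0.07 (adjusted p = 1.2e-08).

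Col6a2, the partner chain, was at 356, 369, 369 and 367 CPM in air and 331, 302, 314, 287 and 317 CPM with silica in regular-diet rats at 3 months. Col6a2 levels in high-fat rats were 403, 358, 402, 359 and 371 CPM in air and 332, 325, 348, 292 and 301 CPM with silica. No overlap was seen on either diet, with changes of -0.24 ± 0.06 (adjusted p = 0.0057) and -0.24 ± 0.05 (adjusted p = 0.0029). At 9 months Col6a2 was between 198 and 266 (median 217) CPM in air and 140.4, 128.2, 157, 151 and 185 CPM with silica on the regular diet. With the high-fat diet the values were between 233 and 263 (median 246) CPM and between 146.7 and 166 (median 158) CPM. Col6a2 was thus the type VI gene without overlap in any of the 4 silica comparisons, and its 9-month changes were -0.55 ± 0.08 (adjusted p = 1.7e-06) and -0.65 ± 0.07 (adjusted p = 3.9e-08).

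Col6a3, the long chain that anchors the filament, was at 809, 836, 801 and 939.6 CPM in air and 744, 745, 702, 729 and 709 CPM with silica in regular-diet rats at 3 months. For the high-fat diet Col6a3 was at 911, 769.6, 871, 792 and 804 CPM in air and 782, 774, 818, 710.3 and 729 CPM with silica. The regular-diet groups did not overlap (-0.22 ± 0.06, adjusted p = 0.011; -0.17 and adjusted p = 0.064 without air rat 4), and the high-fat groups did (-0.12 ± 0.06, adjusted p = 0.16). At 9 months Col6a3 was between 475 and 626 (median 552) CPM in air and 348, 323, 411, 362 and 486 CPM with silica on the regular diet. High-fat rats were between 560.3 and 707 (median 599.8) CPM in air and between 328 and 407 (median 375) CPM with silica. Silica rat 5 reached into the air range on the regular diet, and Col6a3 changed by -0.51 ± 0.09 (adjusted p = 6.6e-05) and -0.73 ± 0.09 (adjusted p = 1.4e-07).

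**Figure D3:**
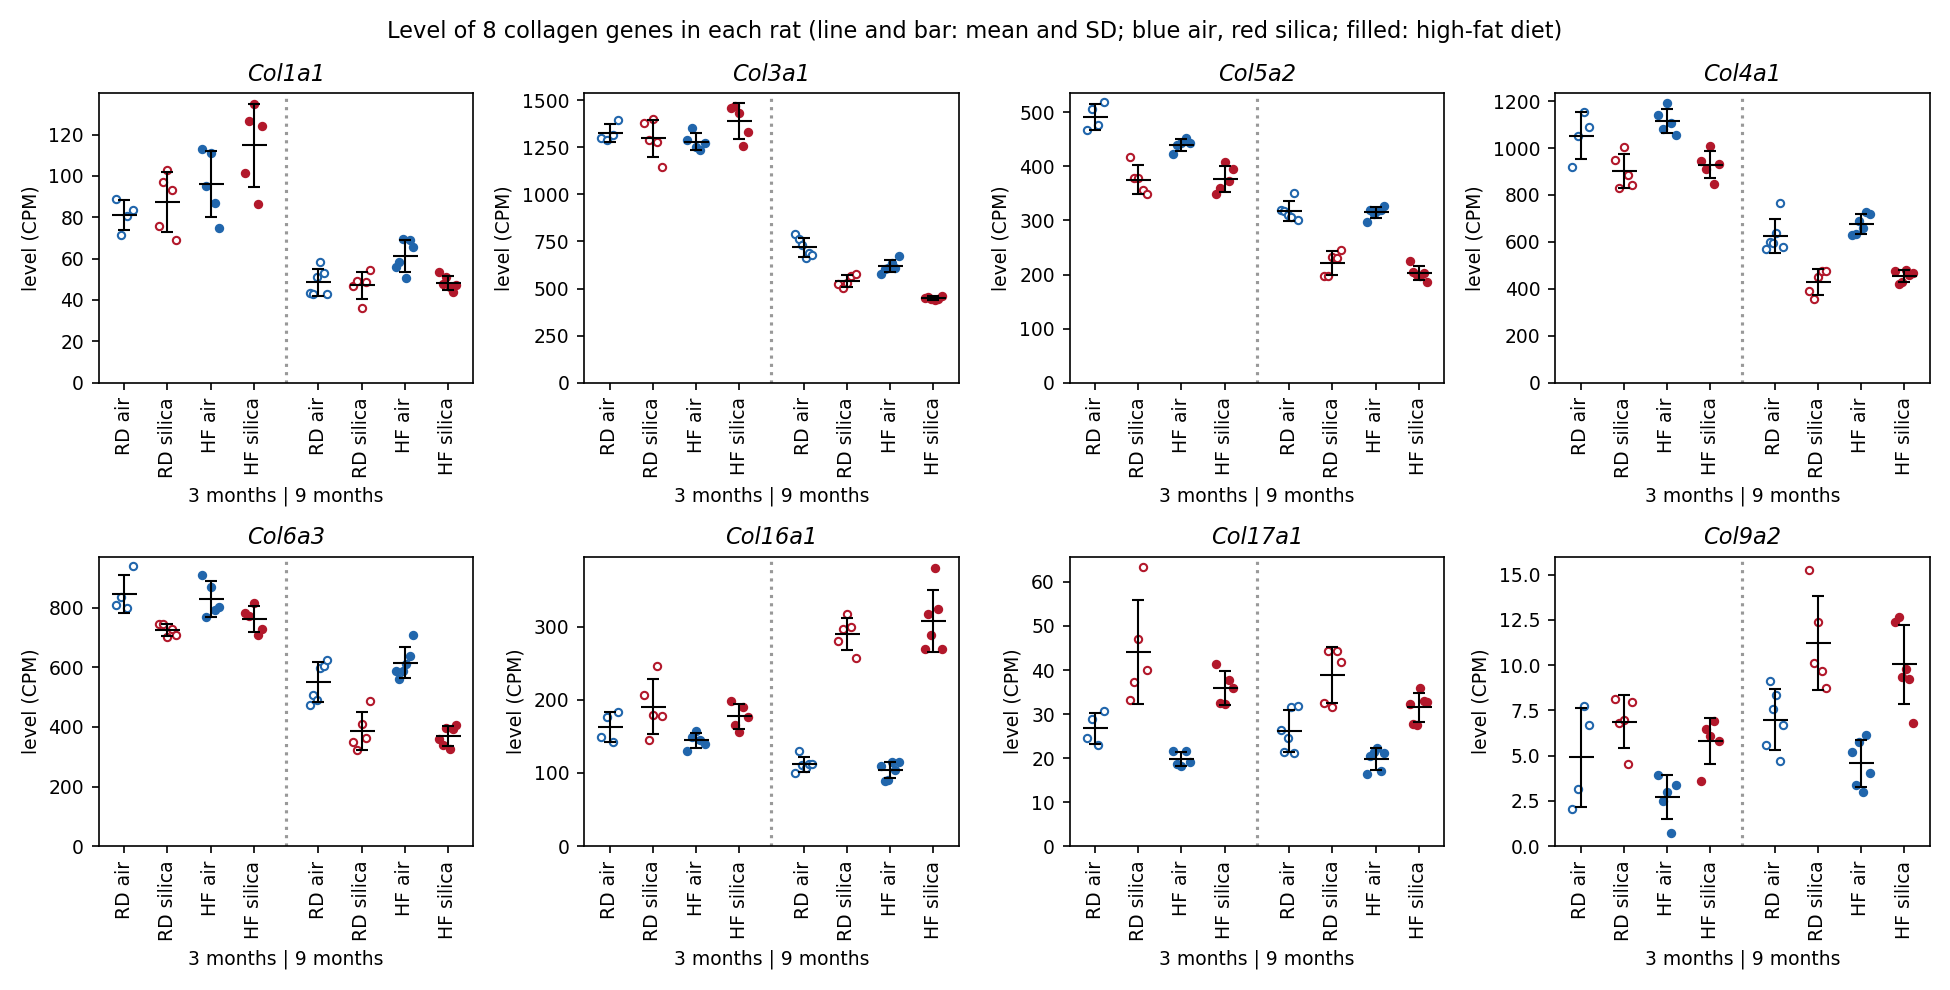
CPM of 8 members in each rat (points: blue air, red silica, filled for the high-fat diet) with the mean and SD of each group (lines and bars). Col16a1 is at 281, 296, 317, 299 and 257 CPM in the regular-diet silica rats at 9 months, above all air rats, while Col5a2, Col4a1 and Col6a3 lie lower with silica.

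FACIT collagens do not form fibres but sit on them. The class split at 9 months, when Col16a1 and Col9a2 rose with silica while Col12a1, Col14a1 and Col19a1 fell. At 3 months 1 of 7 members fell on the regular diet (Col12a1) and 1 of 7 rose on the high-fat diet (Col9a2). At 9 months 3 of 6 fell (Col12a1, Col14a1, Col19a1) and 2 of 6 rose (Col9a2, Col16a1) on each diet. Of all genes, 6.6% and 8.19% fell and 10.2% and 9.23% rose at 3 months. At 9 months 20.6% and 24.9% fell and 24.5% and 26.7% rose, so the few rises of the class are near the share of all genes. The class medians were -0.31, -0.06, -0.25 and -0.23. The class held 0.0642% ± 0.00283 of the counts in air and 0.0675% ± 0.00312 with silica in regular-diet rats at 9 months, and 0.0593% ± 0.00217 and 0.0652% ± 0.00386 in high-fat rats.

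Col16a1 encodes type XVI collagen, a minor component of fibrils and microfibrils that cells bind through integrins, and it had the largest rise with silica of any member at 9 months. At 3 months Col16a1 was at 149.1, 176, 142.6 and 184 CPM in air and 206, 144.9, 179, 246 and 178 CPM with silica on the regular diet. The high-fat values were 130.3, 148.6, 158, 145.01 and 140.04 CPM in air and 198, 165, 156, 189.6 and 177 CPM with silica. These groups overlapped, and the changes were 0.22 ± 0.11 (adjusted p = 0.18) and 0.30 ± 0.10 (adjusted p = 0.053). The high-fat change at 3 months was called by DESeq2 (adjusted p = 0.038), limma voom (adjusted p = 0.047), a fit of those 2 groups alone (adjusted p = 0.0075) and with total counts as library size (adjusted p = 0.044), and on leaving out air rat 3 or silica rat 2 or 3 (adjusted p between 0.035 and 0.046) or air rat 2 (0.05). The regular-diet change was called without silica rat 2 (0.30, adjusted p = 0.043).

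At 9 months Col16a1 was between 99.3 and 130.2 (median 111.2) CPM in air and at 281, 296, 317, 299 and 257 CPM with silica on the regular diet. On the high-fat diet Col16a1 was between 89.6 and 114.7 (median 107) CPM in air and between 269 and 381 (median 303) CPM with silica. No groups overlapped, the lowest silica rat lying far above the highest air rat on each diet, and Col16a1 rose 2.60-fold (1.38 ± 0.09, adjusted p = 3e-12) and 2.97-fold (1.57 ± 0.08, adjusted p = 5.1e-14). With the Rnr1 and Rnr2 covariate the changes were 1.25 and 1.495. A long noncoding RNA entry overlaps Col16a1 in RefSeq. The neighbouring gene Pef1, counted in the same libraries, changed by 0.05, 0.04, -0.11 and 0.02 in the 4 silica comparisons and was called in none. The neighbour on the other side, Adgrb2, and the long noncoding RNA were not examined here.

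The sequence before the start site of Col16a1 (GRCr8, chr5:147672846-147673095, plus strand) is shown beside that of Col17a1 (chr1:256518858-256519107, minus strand), since these were the members with the largest rise at 9 months and with a rise in all 4 silica comparisons. Capitals mark the letters of the motifs searched on both strands: the GC box GGGCGG, the TATA box TATAAA and the CCAAT box CCAAT. A match on the other strand reads CCGCCC for the GC box and ATTGG for the CCAAT box.
Col16a1: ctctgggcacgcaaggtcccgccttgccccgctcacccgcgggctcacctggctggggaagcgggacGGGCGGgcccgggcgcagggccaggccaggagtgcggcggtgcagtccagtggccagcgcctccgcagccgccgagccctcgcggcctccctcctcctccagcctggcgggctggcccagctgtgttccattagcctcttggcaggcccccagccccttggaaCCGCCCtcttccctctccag
Col17a1: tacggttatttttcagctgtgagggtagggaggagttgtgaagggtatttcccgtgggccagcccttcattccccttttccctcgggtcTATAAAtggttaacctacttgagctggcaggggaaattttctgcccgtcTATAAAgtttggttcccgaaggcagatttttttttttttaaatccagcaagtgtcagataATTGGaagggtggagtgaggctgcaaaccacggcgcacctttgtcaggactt

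The RefSeq promoter windows run from 250 bases before to 50 after a start site, and 27 of the 33 members matched one. GGGCGG was present in 17 of those 27 (63.0%) and in 34.9% of all 27457 gene windows of that length, TATAAA in 2 (7.4%) and 14.3%, CCAAT in 7 (25.9%) and 37.7%, and the AP-1 letters TGANTCA in 1 (3.7%) and 7.3%. The windows of Col4a1 and Col4a2 share 176 bases, so a match in that stretch counts for both members. The GC content of the members' windows had a median of 60.0%, and that of all windows 52.3%. The Col16a1 window held GGGCGG at 2 places and no TATAAA or CCAAT, and the Col17a1 window TATAAA at 2 places and CCAAT at 1. The window of Col9a2, the third member that rose at 9 months, held none of these motifs. These are letter matches only.

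Col9a2, a chain of type IX collagen known from cartilage, was low throughout. Col9a2 was at 2.05, 3.15, 7.75 and 6.71 CPM in air and 8.13, 6.79, 6.99, 4.52 and 7.97 CPM with silica in regular-diet rats at 3 months. In high-fat rats the values were 3.91, 2.50, 3.00, 0.735 and 3.40 CPM in air and 3.62, 6.49, 6.11, 6.90 and 5.83 CPM with silica. The change on the regular diet was 0.48 ± 0.29 (adjusted p = 0.28) with wide overlap. The high-fat change was called at 1.09 ± 0.32 (adjusted p = 0.021) but not without air rat 4, the lowest (0.85, adjusted p = 0.061). At 9 months Col9a2 was between 4.68 and 9.10 (median 7.12) CPM in air and 15.2, 10.1, 12.4, 9.66 and 8.74 CPM with silica on the regular diet. The high-fat rats had between 3.00 and 6.13 (median 4.63) CPM in air and between 6.78 and 12.7 (median 9.58) CPM with silica, without overlap. Col9a2 rose by 0.67 ± 0.19 (adjusted p = 0.0048) and 1.08 ± 0.20 (adjusted p = 5.4e-05), the former not called with the Rnr1 and Rnr2 covariate (0.71, adjusted p = 0.065). Of the other type IX chains, Col9a1 had 12 and 8 counts in all at 3 and 9 months and Col9a3 had 92 and 59. Cartilage markers were close to 0, with 9 counts of Acan, 7 of Matn1 and 8 of Hapln1 over the 42 rats. The summed level of the 8 cartilage markers present at 9 months was 1.33 to 3.77 CPM in air and 1.99 to 4.43 CPM with silica in regular-diet rats, and 3.45 to 6.42 CPM in air and 1.92 to 4.96 CPM with silica in high-fat rats. Of the 2 cartilage markers tested at 3 months none was called, and the 1 tested at 9 months, Sox9, was called lower with silica on the high-fat diet.

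Col14a1, a collagen that regulates fibril diameter, was at 48.0, 35.3, 41.4 and 47.5 CPM in air and 42.6, 28.1, 44.1, 23.3 and 33.2 CPM with silica in regular-diet rats at 3 months. For high-fat rats Col14a1 was 48.9, 44.0, 29.7, 47.1 and 48.9 CPM in air and 31.4, 55.6, 40.4, 35.02 and 47.1 CPM with silica. Spread between rats was wide, and the changes of -0.32 ± 0.18 (adjusted p = 0.24) and -0.06 ± 0.17 (adjusted p = 0.86) were not called; the high-fat value was 0.02 without silica rat 1. At 9 months Col14a1 was between 19.8 and 66.1 (median 41.1) CPM in air and 23.4, 15.3, 35.1, 29.4 and 28.0 CPM with silica on the regular diet. It was between 30.5 and 53.7 (median 39.8) CPM in air and between 12.6 and 27.1 (median 19.7) CPM with silica in high-fat rats. The regular-diet groups overlapped and the high-fat groups did not, and Col14a1 changed by -0.65 ± 0.22 (adjusted p = 0.017) and -1.13 ± 0.22 (adjusted p = 9.6e-05). The regular-diet call was lost without air rat 1 (-0.47, adjusted p = 0.068), without silica rat 2 (-0.51, adjusted p = 0.062) and with the Rnr1 and Rnr2 covariate (-0.61, adjusted p = 0.17). Col12a1, which bridges fibrils in stretched tissue, fell on the regular diet at 3 months (-0.31, adjusted p = 0.0098) and on both diets at 9 months (-0.33, adjusted p = 0.00011, and -0.29, adjusted p = 0.00021). Col19a1 was under 2 CPM in the mean of each group and fell at 9 months (-1.51 ± 0.37, adjusted p = 0.0015, and -1.50 ± 0.42, adjusted p = 0.0042). It had 131 counts in all and at most 14 in a rat at 9 months, and its high-fat groups overlapped while the regular-diet groups did not. It met the count rule at both times, at 9 months possibly through the air rats alone, so these decreases are of limited weight. Col20a1 and Col22a1 were called in no silica comparison.

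The remaining members are network, anchoring and membrane-bound collagens. Silica lowered 3 of 6 on the regular diet at 3 months (Col7a1, Col8a2, Col13a1) and 1 of 6 on the high-fat diet (Col13a1). At 9 months it lowered Col7a1, Col8a2, Col13a1 and Col18a1 on both diets. Col17a1 rose each time, and Col8a1 was not called. The medians of these 6 were -0.27, -0.17, -0.45 and -0.45.

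Col17a1 encodes the transmembrane collagen of hemidesmosomes, the rivets that hold epithelial cells to the basement membrane. It was at 24.6, 28.8, 22.9 and 30.6 CPM in air and 33.1, 37.3, 46.9, 63.3 and 40.0 CPM with silica in regular-diet rats at 3 months. In high-fat rats Col17a1 was at 21.5, 18.6, 18.2, 21.6 and 19.1 CPM in air and 41.5, 32.6, 32.2, 37.8 and 35.8 CPM with silica. No silica rat was as low as an air rat of its diet, with changes of 0.71 ± 0.14 (adjusted p = 0.0015) and 0.85 ± 0.14 (adjusted p = 2e-04). At 9 months Col17a1 was between 21.2 and 31.9 (median 25.5) CPM in air and 32.5, 44.2, 31.5, 44.3 and 41.9 CPM with silica on the regular diet. Its high-fat values were between 16.4 and 22.2 (median 20.8) CPM in air and between 27.4 and 35.9 (median 32.5) CPM with silica. The regular-diet groups met at the lowest silica rat, the high-fat groups did not overlap, and Col17a1 rose by 0.56 ± 0.12 (adjusted p = 0.00029) and 0.69 ± 0.12 (adjusted p = 2e-05).

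Col13a1, a transmembrane collagen of cell adhesion sites, was at 206, 216, 211 and 224 CPM in air and 169, 167, 148.2, 138.9 and 146.7 CPM with silica in regular-diet rats at 3 months. Col13a1 values on the high-fat diet were 192, 193, 201, 185 and 176 CPM in air and 142.7, 148.2, 170.4, 151 and 166 CPM with silica. Air and silica rats were apart on both diets, with changes of -0.48 ± 0.06 (adjusted p = 1.4e-05) and -0.28 ± 0.06 (adjusted p = 0.0021). At 9 months Col13a1 was between 112.2 and 169 (median 138.5) CPM in air and 78.6, 57.0, 97.6, 94.4 and 106 CPM with silica on the regular diet. It was between 151 and 186 (median 168) CPM in air and between 86.9 and 112.3 (median 95.3) CPM with silica in high-fat rats. The groups were again apart, and Col13a1 changed by -0.65 ± 0.12 (adjusted p = 5.7e-05) and -0.78 ± 0.11 (adjusted p = 1.6e-06).

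Col8a2, a chain of the short-chain network collagen VIII, was at 19.8, 19.2, 23.6 and 18.0 CPM in air and 14.2, 13.3, 13.4, 15.7 and 17.7 CPM with silica in regular-diet rats at 3 months. In the high-fat groups Col8a2 was 14.1, 12.8, 14.7, 16.9 and 13.1 CPM in air and 16.7, 12.3, 11.6, 9.49 and 12.4 CPM with silica. The regular-diet groups did not overlap (-0.44 ± 0.13, adjusted p = 0.02; -0.36 and adjusted p = 0.098 without air rat 3) and the high-fat groups did (-0.19 ± 0.13, adjusted p = 0.36). At 9 months Col8a2 was between 12.1 and 16.3 (median 12.7) CPM in air and 6.56, 7.46, 7.73, 7.21 and 8.34 CPM with silica on the regular diet. High-fat levels were between 11.4 and 14.4 (median 12.0) CPM in air and between 5.55 and 9.14 (median 8.81) CPM with silica. Neither diet had overlapping groups, and Col8a2 changed by -0.83 ± 0.12 (adjusted p = 2.2e-06) and -0.60 ± 0.11 (adjusted p = 7e-05).

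Col7a1, the anchoring fibril that fastens a basement membrane to the stroma below it, was at 40.3, 42.3, 50.8 and 49.4 CPM in air and 37.8, 32.4, 39.2, 32.3 and 33.8 CPM with silica in regular-diet rats at 3 months. Its level in high-fat rats was 46.7, 37.1, 44.9, 37.5 and 40.0 CPM in air and 32.7, 35.8, 39.2, 35.4 and 37.8 CPM with silica. The regular-diet groups were apart (-0.38 ± 0.09, adjusted p = 0.0052) and the high-fat groups overlapped (-0.18 ± 0.09, adjusted p = 0.16). At 9 months Col7a1 was between 20.2 and 32.3 (median 26.6) CPM in air and 12.6, 15.4, 13.8, 15.6 and 21.0 CPM with silica on the regular diet. In high-fat rats it was between 23.2 and 33.1 (median 27.3) CPM in air and between 10.5 and 19.4 (median 15.4) CPM with silica. Silica rat 5 on the regular diet was inside the air range, the high-fat groups were apart, and the changes were -0.73 ± 0.13 (adjusted p = 6.6e-05) and -0.86 ± 0.13 (adjusted p = 2.9e-06). Col18a1, the basement membrane collagen from which endostatin is cut, fell at 9 months (-0.24 ± 0.08, adjusted p = 0.012, and -0.30 ± 0.07, adjusted p = 0.0014). At 3 months its values were -0.16 (adjusted p = 0.14) and -0.07 (adjusted p = 0.57), and the difference between the times was not called on either diet.

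The silica effect was compared between times as a difference of differences, in 1 fit of all 8 groups. On the regular diet 4 of 33 members had a more negative silica effect at 9 than at 3 months (Col3a1, Col5a1, Col6a2, Col6a6) and 1 a more positive one (Col16a1), against 3.07% and 3.71% of all genes (6.78% in all). On the high-fat diet 18 members were more negative and 1, Col16a1, more positive, against 4.12% and 6.55% of all genes (10.7% in all). The 18 were Col1a1, Col3a1, Col5a1, Col5a2, Col5a3 and Col27a1 of the fibrillar class, Col4a1 to Col4a5, Col6a1, Col6a2, Col6a3 and Col6a6, and Col14a1, Col7a1 and Col13a1. Col16a1 differed by 1.15 ± 0.14 (adjusted p = 2.5e-06) and 1.27 ± 0.14 (adjusted p = 6.9e-08). Col3a1 differed by -0.38 ± 0.08 (adjusted p = 0.0016) and -0.58 ± 0.07 (adjusted p = 9e-07). Col14a1 (-1.08 ± 0.29, adjusted p = 0.013) and Col27a1 (-0.97 ± 0.20, adjusted p = 0.0013) had the largest negative differences among the members called on the high-fat diet. The member medians were -0.20 and -0.41, and those of all genes -0.01 and 0.01. Whether the 2 diets differ in this change with time was not tested.

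**Figure D4:**
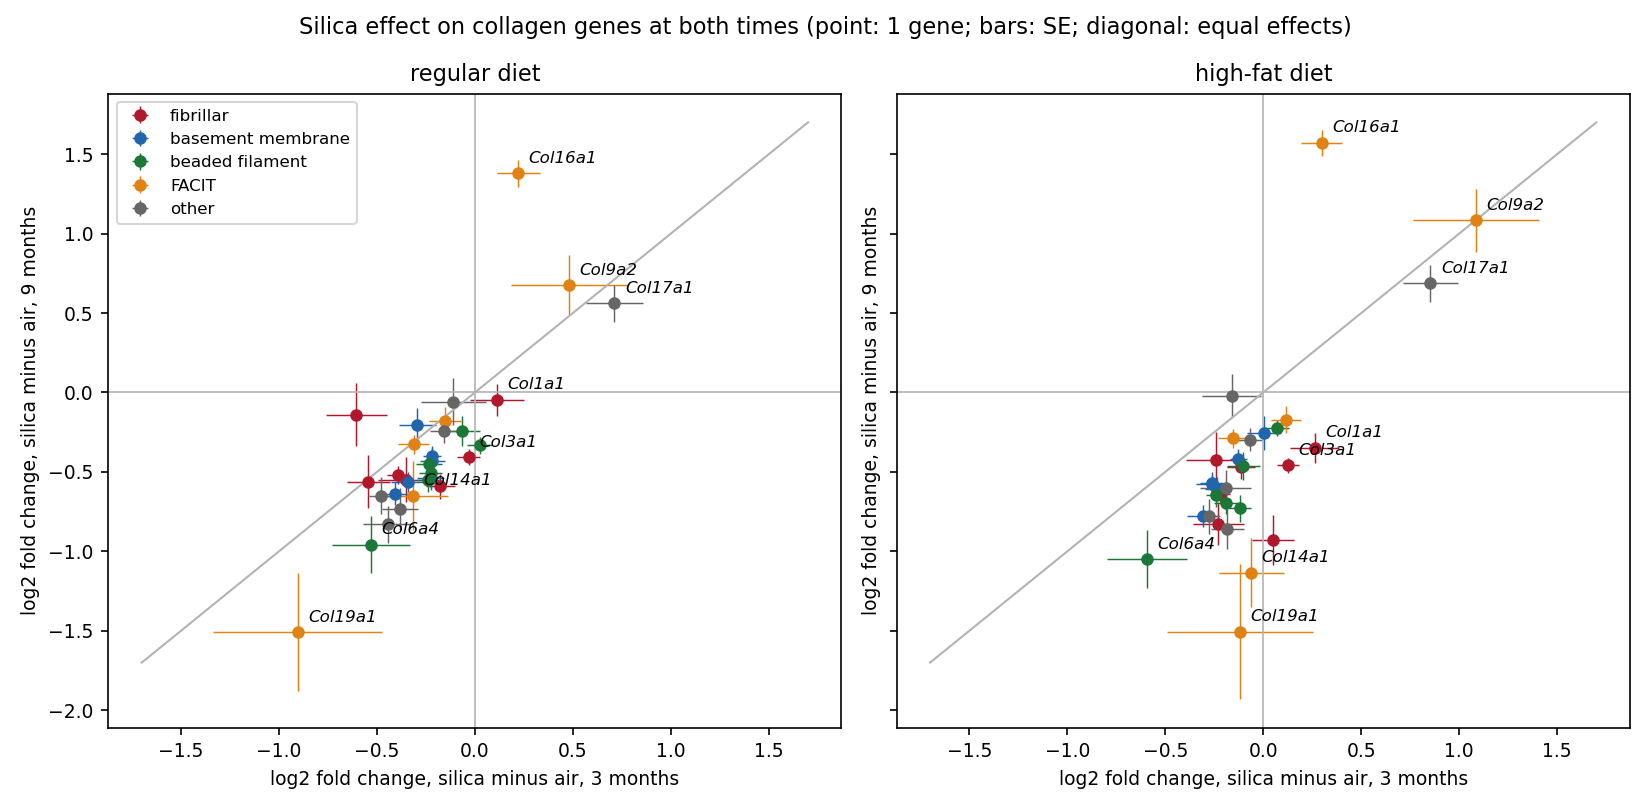
Log2 change with silica at 3 months (horizontal axis) against that at 9 months (vertical axis) for each member with a value at both, coloured by class, on the regular diet (left) and high-fat diet (right); bars are standard errors and the diagonal marks equal change. Most members lie below the diagonal, and Col16a1 lies far above it at 1.38 and 1.57 at 9 months.

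In air at 3 months 2 of 33 members were lower on the high-fat than on the regular diet, against 1.3% of all genes lower and 1.65% higher (2.95% in all): Col27a1 (-0.46 ± 0.11, adjusted p = 0.032) and Col8a2 (-0.49 ± 0.13, adjusted p = 0.045). Col27a1 averaged 17.0 ± 1.13 CPM (SD, n = 4) on the regular diet and 12.4 ± 0.549 CPM (n = 5) on the high-fat diet without overlap, and the corresponding Col8a2 means were 20.1 ± 2.40 and 14.3 ± 1.62 CPM. At least 1 of these 2 calls was lost whichever of the 9 rats was left out, and 0 or 1 members were then called. The count was 1 with the Rnr1 and Rnr2 share as a covariate, 4 with DESeq2, 5 with limma voom and 7 in a fit of only these groups. With silica at 3 months 0 of 33 members differed between diets by edgeR, DESeq2 or limma voom, 6 had an unadjusted p below 0.05, and 0.702% of all genes were called (0.407% lower and 0.295% higher).

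In air at 9 months 3 of 31 members were lower and 3 higher on the high-fat diet, against 7.06% and 8.16% of all genes (15.2% in all). Lower were Col3a1 (-0.22 ± 0.05, adjusted p = 0.0027), Col9a2 (-0.59 ± 0.20, adjusted p = 0.05) and Col17a1 (-0.42 ± 0.12, adjusted p = 0.014), and higher were Col1a1 (0.34 ± 0.09, adjusted p = 0.014), Col4a2 (0.22 ± 0.07, adjusted p = 0.047) and Col6a5 (0.30 ± 0.09, adjusted p = 0.021). The groups of all 6 overlapped. The Rnr1 and Rnr2 share differed between these groups (1.22% and 6.22%), and with it as a covariate 0 members were called. Its range was 0.375% to 2.29% on the regular and 4.62% to 7.19% on the high-fat diet. As these ranges did not overlap, that fit cannot separate the share from diet. Without regular-diet air rat 2 or rat 3 the count was 3. With silica at 9 months only Col3a1 was called, lower on the high-fat diet (-0.27 ± 0.05, adjusted p = 0.0048) and without overlap, against 1.7% of all genes lower and 1.82% higher, a member share of 3.23% beside 3.52% of all genes in either direction. The count was 0 with the Rnr1 and Rnr2 share as a covariate and 5 with total counts as library size, a setting chosen after seeing the data. That share again did not overlap between the diets (2.60% to 5.35% and 7.29% to 7.85%). In the same comparison 5 of 6 mesothelial markers were lower (list median -1.66), and their part in it was not tested.

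No member's silica effect was called as different between the diets. At 3 months the interaction gave 0 of 33 members and 0% of all genes with edgeR, 5 members with an unadjusted p below 0.05, and 0 members with DESeq2 or limma voom. At 9 months it gave 0 of 31 members against 1.09% of all genes (0.543% lower and 0.55% higher), 2 members with an unadjusted p below 0.05, and 0 with either other tool. The interaction was -0.30 ± 0.14 (adjusted p = 0.31) for Col1a1 and 0.19 ± 0.12 (adjusted p = 0.49) for Col16a1 at 9 months, so the fall of Col1a1 on the high-fat diet alone is not shown to be a difference between the diets.

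In air-breathing rats most collagen genes were lower at 9 than at 3 months after exposure. On the regular diet 21 of 33 members were lower and 0 higher, against 11.2% and 11.1% of all genes (22.3% in all). On the high-fat diet 17 were lower and 3 higher (Col9a2, Col12a1, Col27a1), against 18.5% and 17.4% (35.9% in all). The member medians were -0.57 and -0.39, and those of all genes 0.00 and -0.01. The 17 lower on both diets were Col1a1, Col3a1, Col5a1, Col5a2, Col5a3, Col4a1, Col4a2, Col4a5, Col4a6, Col6a1, Col6a2, Col6a3, Col6a5, Col6a6, Col16a1, Col7a1 and Col18a1, and Col11a2, Col22a1, Col8a2 and Col13a1 were lower on the regular diet. Col22a1 met the count rule at 3 months only (155 counts in all there and 91 at 9 months). The rule itself thus favoured its place among the 21, and its decrease is not read as a result. Col3a1 had the smallest adjusted p of the members, with -0.88 ± 0.05 (adjusted p = 3.4e-16) on the regular and -1.05 ± 0.05 (adjusted p = 3.8e-19) on the high-fat diet. Col4a1 (-0.75 and -0.72), Col4a2 (-0.74 and -0.60), Col6a1 (-0.76 and -0.55) and Col1a1 (-0.74 and -0.65) were lower on both diets. Col4a3 (-0.12, adjusted p = 0.3, and -0.10, adjusted p = 0.3) and Col4a4 (0.03, adjusted p = 0.84, and 0.10, adjusted p = 0.28) were not called on either diet, while Col4a5, of the same network, was lower on both. Col16a1, the gene that rose with silica, was lower at 9 months in air (-0.54 ± 0.10, adjusted p = 0.00017, and -0.48 ± 0.10, adjusted p = 2e-04). Each time had its own rats and its own table, so time since exposure, age and table cannot be told apart. These comparisons share the air groups with the silica comparisons. Cell markers moved in the same comparisons, regular diet before high-fat: 6 and 4 of 9 fibroblast, 5 and 5 of 6 pericyte and 5 and 4 of 8 endothelial markers were lower, and 5 and 4 of 8 alveolar type 1 and 3 and 2 of 6 macrophage markers were higher. The Rnr1 and Rnr2 share went from 1.26% to 1.22% on the regular diet and from 0.957% to 6.22% on the high-fat diet in air. The part of either in these values was not tested.

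Genes that hydroxylate and fold the chains, process and crosslink them, bind them or break them down were counted as lists. Of all genes, 10.2% rose and 6.6% fell on the regular diet and 9.23% and 8.19% on the high-fat diet at 3 months, and 24.5% and 20.6%, and 26.7% and 24.9%, at 9 months, so the lists' counts are to be read against these shares. Of 18 genes tested for chain hydroxylation and folding, silica raised 4 and lowered 3 at 3 months on the regular diet and raised 1 and lowered 1 with the high-fat diet, and raised 5 and lowered 9, and raised 5 and lowered 8, at 9 months. The list medians were -0.13, -0.07, -0.08 and -0.02 in that order, beside all-gene medians between -0.01 and 0.00. P4hb, a subunit of the prolyl hydroxylase that also serves as a general protein disulfide isomerase, rose at 9 months (0.52 ± 0.05 and 0.68 ± 0.04), while Plod2, the lysyl hydroxylase of crosslink sites, fell (-0.36 ± 0.10 and -0.40 ± 0.09). Sparc, a matrix protein that binds collagen, fell (-0.41 ± 0.07 and -0.37 ± 0.06). Of 6 procollagen processing genes, 0, 1, 0 and 1 rose and 1, 0, 4 and 4 fell in the 4 silica comparisons, regular diet before high-fat at each time, with medians of -0.03, -0.10, -0.39 and -0.44. Adamts2, which cuts the amino end of procollagens, fell at 9 months (-0.49 ± 0.07 and -0.42 ± 0.06).

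Of the genes for crosslinking and fibril assembly, 1 and 1 of 16 rose and 3 and 2 fell at 3 months, and 2 and 2 of 15 rose and 8 and 10 fell at 9 months, with medians of -0.14, -0.02, -0.27 and -0.38. Lysyl oxidase itself, Lox, was not called in any silica comparison (0.13, -0.20, -0.08 and -0.13), and Loxl2 fell at 9 months (-0.61 ± 0.14 and -0.73 ± 0.13). Postn, which scaffolds collagen crosslinking, fell in all 4 comparisons (-0.23, -0.23, -0.70 and -0.68). Thbs2, a matrix protein that affects fibril assembly, rose at 9 months (1.92 ± 0.18 and 1.04 ± 0.18). Of the collagen receptors, 0 and 1 of 8 rose and 2 and 4 fell at 3 months, and 2 and 2 of 9 rose and 4 and 6 fell at 9 months, with medians of -0.22, -0.18, -0.10 and -0.44. Itga1, the integrin chain that binds type IV collagen, fell at 9 months (-0.46 ± 0.10 and -0.66 ± 0.10), as did Ddr2, a receptor for fibrillar collagen (-0.45 ± 0.09 and -0.56 ± 0.09).

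The list of degradation and uptake genes had more rises than falls in all 4 silica comparisons, and it holds the collagenase inhibitors Timp1, Timp2 and Timp3 as well as Mrc1, which is also among the macrophage markers. Of 14 tested, 6 and 4 rose and 2 and 3 fell at 3 months, and 9 and 8 rose and 4 and 4 fell at 9 months, with medians of 0.32, 0.17, 0.56 and 0.50. Ctsk, the cathepsin that cuts helical collagen, rose at 3 months (1.37 ± 0.15 and 1.11 ± 0.16) and at 9 months (1.45 ± 0.19 and 2.57 ± 0.21). Mmp14, a membrane-bound collagenase, rose at both times (0.59 ± 0.09, 0.54 ± 0.08, 0.98 ± 0.07 and 1.28 ± 0.07). Timp1 rose at 9 months (0.66 ± 0.15 and 0.49 ± 0.14), and Mrc1, an uptake receptor, changed by 0.29 ± 0.09 and 0.50 ± 0.09, both called. Mmp2, a gelatinase, fell at 9 months (-0.19 ± 0.05 and -0.24 ± 0.05). Cathepsins are also abundant in macrophages, whose markers rose in the same rats, and the part of those cells in these values was not tested. Of 16 laminins and other basement membrane partners, 0 and 1 rose and 4 and 6 fell at 3 months, and 2 and 3 rose and 11 and 11 fell at 9 months, with medians of -0.12, -0.16, -0.35 and -0.33. Lama4, a laminin chain of blood vessels, fell in all 4 (-0.20, -0.25, -0.63 and -0.76).

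**Figure D5:**
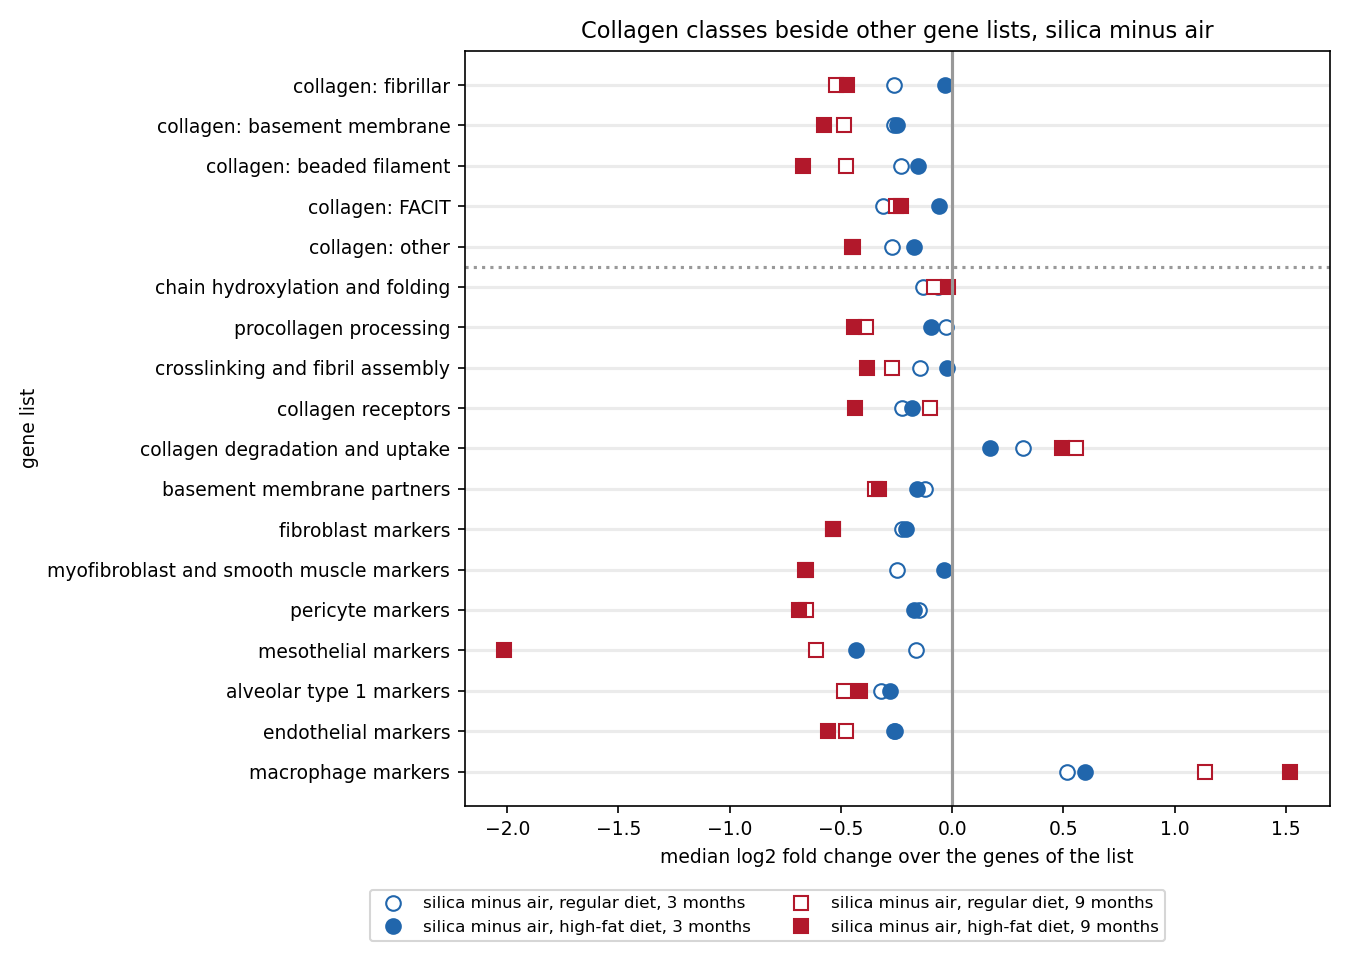
Median log2 fold change with silica (horizontal axis) over the genes of each collagen class, pathway list and cell marker list other than the cartilage markers (rows), for both diets at 3 months (circles) and 9 months (squares), filled for the high-fat diet. Degradation and uptake genes and macrophage markers have medians above 0 in all 4 comparisons, and the other lists shown lie at or below 0, down to -2.01 for the mesothelial markers on the high-fat diet at 9 months.

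The remaining 11 of the 44 symbols did not reach the count rule in either table and were not tested as members. Col11a1 had 77 and 56 counts in all at 3 and 9 months, Col9a3 92 and 59, Col26a1 51 and 27, and Col28a1 49 and 34. Col10a1, Col2a1, Col9a1, Col23a1 and Col25a1 had at most 16 counts in all in a table. Col15a1 had 16 counts at 3 months, all in a single rat, and 0 at 9 months, a pattern like that of Col1a2. Of the members just inside the rule, Col22a1 had 155 and 91 counts and Col24a1 158 and 100.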

How the data were processed

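Lung RNA of 42 rats in 8 groups of diet, exposure and time was analysed, with 4 to 6 rats a group by the labels. The deposited values are whole-number counts of reads per gene, 1 table per time. The submitters' processing notes name HTSeq 0.6.1, TopHat2 2.0.9 with Bowtie2 2.2.9, Trimmomatic 0.35, SAMtools 0.1.19, bcl2fastq 2.19 and the rat build Rnor_6.0. The strand setting of the counting and the source of the annotation were not given in the sources used here.

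Counts were filtered with filterByExpr, scaled by TMM and fitted with edgeR 4.0.16 (quasi-likelihood test) in R 4.3.3, with the 4 groups of a time in 1 fit (15234 and 15276 genes) and all 8 groups in 1 fit for comparisons across time (15759 genes). P-values were adjusted by Benjamini-Hochberg over all genes of a fit, and a gene was called at an adjusted p below 0.05. Changes are log2 fold changes with standard errors. CPM were computed from 1 TMM scaling of the 42 libraries. The fits were tested on simulated data. The closest pair of rats of a group differed by 1.99 times the counting noise (chi-square per degree of freedom), so no library was counted as a duplicate. Intervals of counting error were not used, since replicates gave the error.

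Members and lists were chosen with earlier results of these data known. Values of each rat are given for Col1a1, Col3a1 and up to 3 members of each class with the smallest adjusted p, every called member is named, and of each pathway list the 2 genes with the smallest p. Col4a1, Col17a1, Timp1, Mrc1, Lox, Loxl2, Plod2, Sparc, Mmp2 and the marker genes named fall outside this rule in some comparison and were chosen after their values were seen. Listed genes without a symbol in the tables (P3h1 to P3h4, Pcolce2, Tnxb, Adgrg1, Hspg2, Npnt, Cnmd, Snorc, Adgre1 and Chil3) were not analysed here. Alternatives were RLE size factors, no filter on low counts, DESeq2 1.42.0, limma 3.58.1 voom with sample weights, the older edgeR dispersion method, the Rnr1 and Rnr2 share as a covariate, fits of only the groups compared, leaving out each rat, and total counts as library size.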

Additional observations from a re-analysis of the deposited data

Results flagged for a closer look

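A rat far from the others of its group was found in 5 group values out of those tested for 16 members in each of 8 groups, fewer than the 1 in 20 that chance gives. These were Col5a2 at 351 CPM in rat 5 of the regular-diet air group at 9 months, Col4a3 at 286 CPM in rat 3 of the high-fat silica group at 3 months, Col6a1 at 276 CPM in rat 6 of the high-fat air group at 9 months, Col14a1 at 29.7 CPM in rat 3 of the high-fat air group at 3 months, and Col8a2 at 5.55 CPM in rat 6 of the high-fat silica group at 9 months.

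The silica effect differed between 9 and 3 months by a test of the difference itself (edgeR quasi-likelihood test, Benjamini-Hochberg adjusted). On the regular diet the log2 differences were -0.38 for Col3a1, -0.42 for Col5a1, -0.32 for Col6a2, -0.36 for Col6a6 and 1.15 for Col16a1. With the high-fat diet, fibrillar members differed by -0.61 (Col1a1), -0.58 (Col3a1), -0.35 (Col5a1), -0.42 (Col5a2), -0.60 (Col5a3) and -0.97 (Col27a1). Type IV members differed by -0.31 (Col4a1), -0.37 (Col4a2), -0.47 (Col4a3), -0.31 (Col4a4) and -0.29 (Col4a5), and type VI members by -0.50 (Col6a1), -0.41 (Col6a2), -0.61 (Col6a3) and -0.29 (Col6a6). The remaining differences were -1.08 for Col14a1, -0.67 for Col7a1, -0.50 for Col13a1 and 1.27 for Col16a1. Time since exposure, age and table cannot be told apart in these values.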

How the results depend on the processing

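Counts of members called kept within 1.5 times of the reported count in all 14 comparisons with RLE size factors, without the filter on low counts and with the older edgeR dispersion method. The 2 members called for diet in air at 3 months became 4 with DESeq2, 5 with limma voom, 1 with the Rnr1 and Rnr2 covariate and 7 in a fit of only those groups. For diet at 9 months, the 6 members called in air and the 1 called with silica became 0 and 0 with that covariate, and the latter became 5 with total counts as library size, a setting chosen after seeing the data. The covariate cannot be separated from diet or silica at 9 months, where its ranges did not overlap between the groups compared. The 6 in air split into 3 lower and 3 higher, and with total counts into 5 lower and 1 higher. Total counts shifted the median of all genes to -0.09 and -0.10 in the silica comparisons at 9 months.

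Leaving out 1 rat at a time gave 12 to 18 members for silica on the regular diet and 7 to 13 on the high-fat diet at 3 months, and 23 to 26 and 26 to 30 at 9 months. Diet gave 0 to 1 in air and 0 to 1 with silica at 3 months (1 without high-fat silica rat 3), and 3 to 9 in air and 1 to 1 with silica at 9 months. The interactions stayed at 0. Differences in the silica effect between times gave 4 to 7 and 16 to 21 members, and time in air 20 to 21 and 19 to 21. Of 672 single-member values without 1 rat, 636 kept direction and call, 26 lost the call, 6 gained it and 4 uncalled ones changed sign: Col3a1 on the regular diet at 3 months (-0.068 to 0.0081 over the rats left out), Col14a1 on the high-fat diet at 3 months (-0.17 to 0.024), and Col1a1 (0.01 and 0.038) on the regular diet at 9 months (-0.10 to 0.038). Of 512 such values under the other alternatives, 502 kept both, 5 lost and 5 gained the call, and 0 changed sign. The cause of these changes was not tested. No paired analysis was possible because the groups share no rat and the rat tags in the labels are not shared between groups.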
